A study of Mus musculus with 2 samples.

Results

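EBF1-enriched bins outside the listed peaks are stretches of 1 kb on mouse chromosomes 1 to 19 and X, at least 2 kb from any EBF1 peak in the authors' list, that held at least 20 EBF1 ChIP reads and a ChIP to input ratio of at least 5. To allow for unequal depth, the ratio was scaled by that of the 2 library totals (1.06) and is called the scaled ratio. Of 2419766 bins with a read at that distance from the peaks (2455190 bins with a read in all), 2005 met the rule, which is 0.0829%. The bins were therefore chosen on their own ChIP and input reads, and those counts describe them without testing anything. The rule set no limit on how the reads were spread within a bin, on the strands or on the neighbouring bins. Position entered it only through the chromosomes used and the 2 kb gap. Strand entered it only through the move of each 5′ end by 100 bp towards 3′. How leaving out bins near listed peaks bears on the spread, strand and distance results was not tested.

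The reads came from 1 ChIP library and 1 input library of splenic B cells from adult C57BL/6 mice, sequenced by ChIP-seq (precipitation of protein-bound DNA fragments followed by sequencing). Cells carrying CD43, AA4.1, CD9, CD4 or CD8 had been depleted with magnetic beads. Of the cells kept, about 97% carried B220, and about 92% of these were CD23 positive with intermediate CD21, the phenotype of mature follicular B cells. Chromatin was fixed with 1% formaldehyde for 10 min and sheared to about 200 bp. The ChIP group used a custom rabbit polyclonal antibody raised against murine EBF1, the Input group none, and the number of mice pooled is not given in the labels. The libraries held 24354888 and 23053279 reads of 35 bp, and a bin at least 2 kb from any peak had a median of 9 reads in each. With 1 library per group there was no replicate check and no test between groups. Intervals are exact 95% intervals (binomial, Clopper-Pearson) and cover counting error only.

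EBF1 is a zinc-knuckle transcription factor with a helix-loop-helix dimerisation domain. It specifies the B lineage together with E2A and PAX5, binds DNA as a dimer, and activates genes of the pre-B and B cell receptor and of receptor signalling. A factor bound at 1 site gives ChIP reads that pile up within a short stretch, with plus-strand reads to the left of the site and minus-strand reads to the right, offset by about the length of the fragments. Chromatin that is easily sheared or precipitated raises ChIP reads over wider stretches. In bulk chromatin, strong binding in few cells and weak binding in many cannot be told apart.

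The median enriched bin held 23 ChIP reads, with an upper quartile of 27 and a range of 20 to 75. Input reads lay between 0 and 10, with a median of 4, and 1629 bins had 4 or fewer. Pooled over the bins there were 50320 ChIP and 7300 input reads, a scaled ratio of 6.52, which the rule fixes in part. The bins were crowded at the limits: 267 held exactly 20 ChIP reads, while 356 further bins past the ratio limit held 19 and were left out. Just inside the read limit, the bins on chromosome 1 at 6750001 to 6751000 and at 39331001 to 39332000 each held 20 ChIP and 3 input reads. Just outside it, those at 35900001 to 35901000 and at 39269001 to 39270000 each held 19 and 3. Just inside the ratio limit, bins on chromosome 2 at 90380001 to 90381000 and on chromosome 5 at 117513001 to 117514000 each held 37 ChIP and 7 input reads, a scaled ratio of 5.00. Just outside, bins on chromosome 1 at 5907001 to 5908000 and at 6776001 to 6777000 held 21 and 4, a scaled ratio of 4.97. All 2005 bins had an interval above 1, which follows from the limits, 1184 (59.1%) an interval above 2 and 133 an interval above 3.

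**Figure D1:**
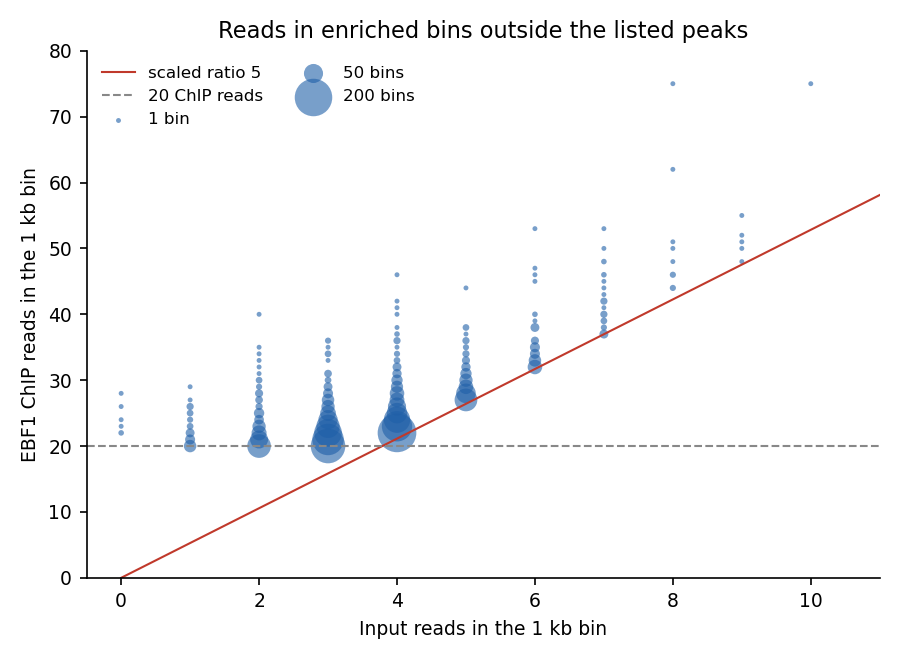
EBF1 ChIP reads (y axis) against input reads (x axis) in the 2005 enriched bins, with point area growing with the number of bins at the same pair of counts. The dashed line marks 20 ChIP reads and the red line a scaled ratio of 5. Most bins lie in the corner between the 2 limits, and 2 bins with 75 ChIP reads stand highest.

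The rule applied with the libraries exchanged, asking for at least 20 input reads and an input to ChIP ratio of at least 5, found 465 bins (0.0192% of those examined), here called exchanged bins. They are the background for the count and were measured the same way. With at least 30 reads the counts were 307 in ChIP (0.0127%) and 6 in input (0.000248%). As a multiple of the exchanged count the excess was thus larger among bins with more reads, while as a difference it was smaller. The exchanged count takes both libraries to vary alike, and they did not quite. Over all bins examined, ChIP reads ran from 2 to 19 (5th to 95th percentile) and input reads from 3 to 17, with a median of 9 in each. How far this makes the exchanged count too low a background was not tested.

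ChIP signal in most enriched bins was broad, as it was in most bins of the background. The measure used is the share of a bin's ChIP reads that fell in its best 150 bp, the length of a listed peak. Half-concentrated bins (a share of at least 50%) are called narrow and those with at most 35% broad. The median share was 33.3% (quartiles 29.2 and 36.7%), 40 bins were narrow (2.00%, 1.43 to 2.71%) and 1343 were broad (67.0%, 64.9 to 69.0%). Broad bins made up 57.5% (57.2 to 57.8%) of the other bins outside the peaks with at least 20 ChIP reads, and 52.0% (47.4 to 56.7%) of exchanged bins by their input reads. The middle 50% of a bin's reads spanned a median of 431 bp.

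Listed peaks with as many reads were much more concentrated. A share of this kind falls as reads increase, so bins were compared within classes of ChIP reads. Among bins with 20 to 24 reads, 3.19% of the 1222 enriched bins were narrow (2.28 to 4.34%), against 46.5% (42.1 to 51.0%) of 505 bins holding a listed peak in the lowest score quartile (score up to 5.38). The authors' peaks are 150 bp long, and how the choice of peaks bears on this share was not tested. With 25 to 29 reads, 0 of 476 enriched bins were narrow, which allows a share of up to 0.772%, against 14.5% (11.6 to 17.9%) of 510 such peak bins. With 30 or more reads, 1 of 307 enriched bins was narrow (0.326%, 0.00825 to 1.80%), against 6.15% (4.55 to 8.10%) in the lowest and 73.1% (71.0 to 75.1%) in the highest score quartile (score of at least 8.33). The median share in enriched bins was 34.8, 32.0 and 30.0% in the 3 classes, lowest where there were most reads.

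Enriched bins were also less often narrow than ordinary bins with as many ChIP reads. The 106118 other bins outside the peaks with at least 20 ChIP reads missed the ratio limit, with a mean of 13.5 input reads against 3.64 in enriched bins. Of these, 6.20% (6.03 to 6.37%) were narrow with 20 to 24 reads, 3.91% (3.64 to 4.19%) with 25 to 29 and 3.89% (3.48 to 4.32%) with 30 or more. Each of these values lies above the upper bound for enriched bins of the same class. Exchanged bins, measured on their input reads, were narrow in 9.68% of 465 cases (7.15 to 12.7%). The number of positions that can be mapped within a bin bears on all of these shares, and its part was not tested.

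**Figure D2:**
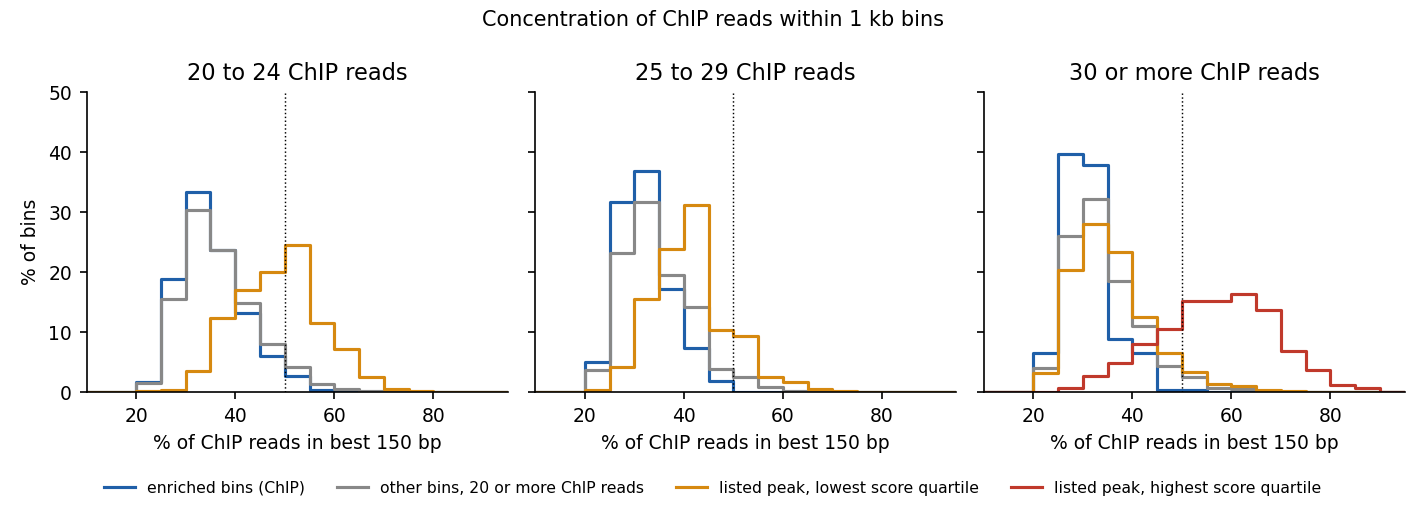
Share of a bin's ChIP reads within its best 150 bp (x axis, in %) against the percentage of bins (y axis), in 3 panels by ChIP reads per bin; the dotted line marks 50%. Enriched bins (blue) overlap the other bins (grey) and lie left of bins with a listed peak of the lowest (orange) and highest (red, shown for 30 or more reads only) score quartile.

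A small strand offset was present. All pairs of a plus-strand and a minus-strand read within a bin were counted by the distance between their 5′ ends, in steps of 10 bp, relative to the density of pairs at 400 to 500 bp. Here reads were placed in bins by unmoved 5′ ends, so they differ in part from those the rule counted by moved ends. How this bears on the densities was not tested. In enriched bins the highest value between 60 and 300 bp was at 95 bp, where pairs were 1.28 times as dense (3633 pairs) as at 400 to 500 bp. Pairs share reads, so their number overstates the precision. Within that range, other bins with at least 20 ChIP reads were also highest at 95 bp, with a density of 1.36. Outside it they were higher still, 1.40 at 30 to 40 bp. Bins with a listed peak of the lowest score quartile reached 1.62 at 105 bp, and those of the highest quartile 6.62 at 115 bp. Exchanged bins, measured on their input reads, reached 1.54 at 115 bp (629 pairs). The few input reads of the enriched bins reached 1.25 at 115 bp (66 pairs) but 1.53 at 0 to 10 bp (91 pairs), so no offset is read from them. Judged by the exchanged bins and the other bins, an offset of this height was not limited to ChIP reads or to enriched bins.

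More reads did not bring a stronger offset. The highest value was 1.33 in enriched bins with 20 to 24 ChIP reads, 1.30 with 25 to 29 and 1.24 with 30 or more, at 105, 95 and 95 bp. It was 1.26 in the 253 enriched bins within 10 kb of a listed peak and 1.31 in the 733 at 100 kb or more, both at 105 bp. Pooled over the enriched bins, plus-strand reads made up 50.4% (49.9 to 50.8%) of the reads. By single bins, at least 80% of the reads lay on 1 strand in 11 of 2005.

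**Figure D3:**
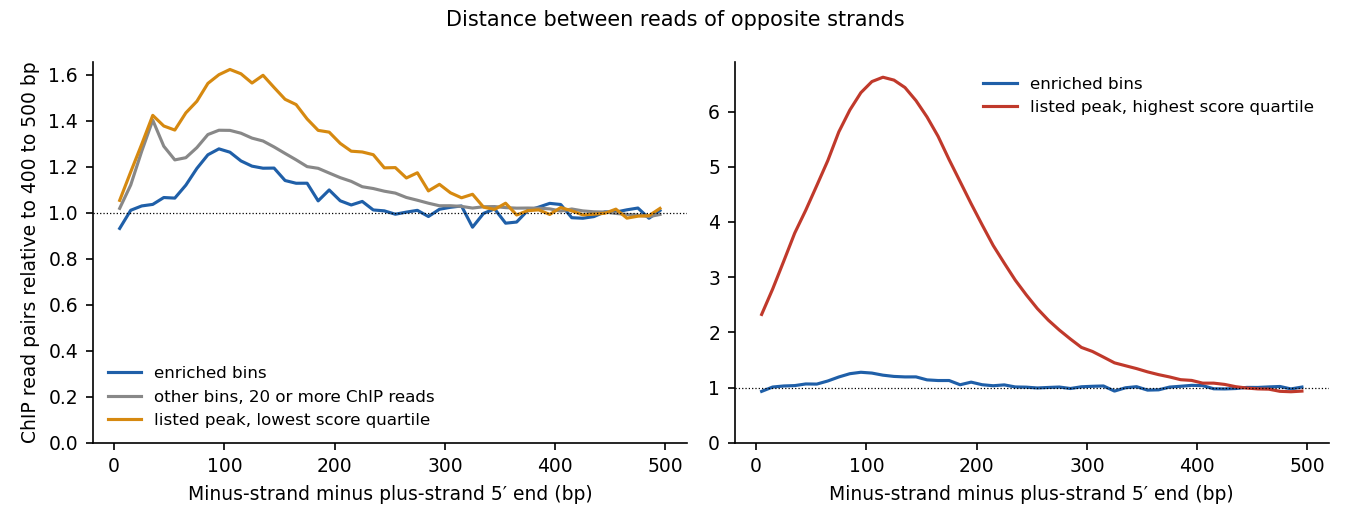
Density of pairs of ChIP reads on opposite strands (y axis, relative to pairs at 400 to 500 bp) by the distance from the plus-strand to the minus-strand 5′ end (x axis, bp). Enriched bins (blue) reach 1.28 at 95 bp, below the other bins (1.36, grey) and the listed peaks of the lowest (1.62, orange) and highest (6.62, red, right panel) score quartile at the highest value between 60 and 300 bp. The grey line is higher below 60 bp, at 1.40 for 30 to 40 bp, outside the range searched.

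The input was low inside the bins and returned to the level of the surroundings at their edges. Enriched bins held 3.64 input reads on average, against 9.88 per kb in the 5 kb on each side, 0.369 of the flanks. In 2003 of the 2005 bins the input lay below that of the flanks. By steps of 200 bp, input was 0.743 reads per bin in the first 200 bp inside the left edge and 1.91 in the 200 bp just outside it. At the right edge it was 0.741 inside and 1.89 outside. The rule asks for few input reads in the bin and asks nothing of the flanks, and the drop in input had the width and the borders of the bin.

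ChIP reads also stepped at the edges, from 4.70 reads per 200 bp inside to 3.37 outside on the left and from 4.95 to 3.21 on the right, but an excess reached past them. The bins held 25.1 ChIP reads on average and the directly adjacent bins 15.0, falling to 13.9 at 2 kb, 13.5 at 3 kb and 13.2 at 4 kb, after which the level stayed between 13.2 and 13.3 up to 10 kb. Input was flat over the same range, between 9.83 and 9.95 reads per bin. The scaled ratio was 1.45 (1.43 to 1.46) in adjacent bins, 1.33 (1.31 to 1.34) at 2 kb and 1.27 (1.26 to 1.28) over 4 to 10 kb. Neighbouring bins that met the rule themselves were left out, as were bins within 2 kb of a peak; the rule set no lower limit on the reads of the rest. A local ChIP excess of modest size was therefore present beside the bins, on top of a ratio that stayed above 1 throughout. Around exchanged bins the ratio was 0.852 (0.827 to 0.878) in adjacent bins and 0.877 (0.867 to 0.887) over 4 to 10 kb, intervals that overlap. Around the other bins with at least 20 ChIP reads it was 1.122 (1.120 to 1.125) in adjacent bins. It fell there to 1.098 (1.097 to 1.099) over 4 to 10 kb, so a fall with distance was not limited to enriched bins. Neighbours of that same set were left out there, which lowers these values, so the sizes of the falls are not compared.

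The fall in ratio away from the bins was present in each class of reads. Next to the 307 bins with 30 or more ChIP reads, the ratio was 1.53 (1.48 to 1.58), falling to 1.20 (1.18 to 1.21) over 4 to 10 kb. Next to the 476 bins with 25 to 29 reads it was 1.49 (1.45 to 1.53), falling to 1.29 (1.28 to 1.30), and next to the 1222 bins with 20 to 24 reads it was 1.41 (1.38 to 1.43), falling to 1.28 (1.27 to 1.29). The 49 bins with 40 or more reads had 1.40 (1.30 to 1.52) beside them and 1.11 (1.08 to 1.15) over 4 to 10 kb. The ratio at 4 to 10 kb was lower around bins with 30 or more reads than in both smaller classes, which did not differ beyond their intervals. The adjacent ratio of the 49 bins overlaps that of every class but has a wide interval.

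**Figure D4:**
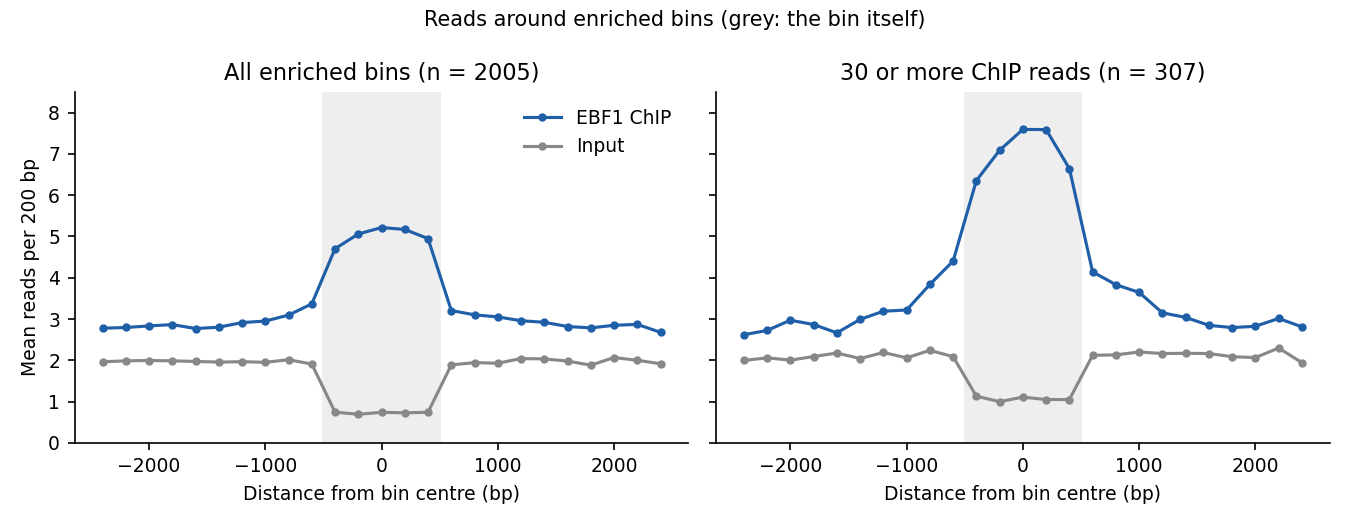
Mean ChIP (blue) and input (grey) reads per 200 bp (y axis) by distance from the bin centre (x axis, bp) around all 2005 enriched bins and around the 307 with 30 or more ChIP reads; the bin itself is shaded. Input steps from 1.91 to 0.743 at the left edge of all bins, and ChIP reads step from 3.37 to 4.70 there and decline further away from the bin.

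A measure of enrichment free of the choice was taken from the strands. Bins with at least 10 plus-strand ChIP reads and a plus-strand scaled ratio of at least 5 were chosen, and the minus-strand reads of the same bins were then counted. The 13974 bins so chosen had a plus-strand ratio of 7.64 but a minus-strand ratio of 1.45 (1.44 to 1.47). With the strands swapped the ratio was also 1.44 (1.43 to 1.46), in 13801 bins. With the libraries exchanged, 10004 bins were chosen and their minus-strand input to ChIP ratio was 1.15 (1.14 to 1.16). Most of a ratio chosen at 5 or more in this way was not seen in the reads left out of the choice, and a part of it was. The 13974 bins are not the set of enriched bins, and the ratio in their surroundings was not measured. Around enriched bins the ratio was 1.45 (1.43 to 1.46) in adjacent bins and 1.27 (1.26 to 1.28) over 4 to 10 kb. How much of the minus-strand ratio belonged to the surroundings rather than to the chosen bins was not tested. Both strands come from the same 2 libraries and are not replicates.

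Setting each bin against the input of its surroundings left few bins. When the mean input over the bin and 5 kb on each side was used in place of the bin's own input wherever it was higher, 10 of the 2005 bins passed, and 15 with the libraries exchanged. The 10 held 21 to 75 ChIP and 3 to 10 input reads, and none was narrow. They included 3 of the 10 bins with most ChIP reads, on chromosome 17 at 87174001, chromosome 7 at 44683001 and chromosome 1 at 152155001. The last lay 2372.69 kb from the nearest listed peak. In it 51 ChIP and 8 input reads gave a scaled ratio of 6.03 (2.84 to 14.7), and its adjacent bins held 14 and 6 ChIP reads. Its best 150 bp held 12 ChIP reads (23.5%), so this isolated bin was broad.

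The bins with the most ChIP reads showed several shapes. On chromosome 17 at 87174001 to 87175000 there were 75 ChIP and 8 input reads, a scaled ratio of 8.87 (4.28 to 21.3). Its best 150 bp, from 87174275, held 29 ChIP reads (38.7%), and 32 reads were on the plus and 43 on the minus strand. The bins before and after held 23 and 8 ChIP reads, so most of the signal lay in this 1 bin. The median listed peak held 12 ChIP reads in its 150 bp, and 110 enriched bins (5.49%, 4.53 to 6.57%) had at least as many in their best 150 bp. The best window was the highest of many in a bin, which raises its count beside a fixed peak.

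On chromosome 7 at 44683001 to 44684000 there were 75 ChIP reads over 10 input reads, giving a ratio of 7.10 (3.65 to 15.4). Of these, 21 were on the plus and 54 on the minus strand, and the next bin held another 46 ChIP reads against 14 input reads. The signal therefore ran across the bin border. The bin on chromosome 6 at 144859001 to 144860000 held 53 ChIP reads, 13 plus and 40 minus, and 6 input reads, and its ratio was 8.36 (3.60 to 23.8). Its best 150 bp began at 144859763, near the right edge, and held 25 ChIP reads (47.2%), which also placed it among the 5 most concentrated bins with at least 25 reads. The bin after it held 22 ChIP and 12 input reads. In both of these bins minus-strand reads were in the majority and the next bin was also rich in ChIP reads; whether the bin border parts the strands was not tested.

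On chromosome 10 at 116839001 to 116840000 there were 62 ChIP reads over 8 input reads, giving a ratio of 7.34 (3.50 to 17.7), with 24 and 25 ChIP reads in the adjacent bins. A bin on chromosome 3 at 136607001 to 136608000 held 55 ChIP reads over 9 input reads, for a ratio of 5.78 (2.84 to 13.3), and the next bin 39 ChIP and 8 input reads. This pair lay 322.87 kb from a listed peak in a region where ChIP was below input, with a regional ratio of 0.840. The other 5 of the 10 bins with most reads held 50 to 53 ChIP and 7 to 9 input reads. They were on chromosome 9 at 62609001, chromosome 11 at 48660001, chromosome 1 at 152155001, chromosome 5 at 124686001 and chromosome 2 at 49273001. Their best 150 bp held 12 to 17 ChIP reads, or 23.5 to 33.3%.

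The 5 bins with the highest lower bound of the ratio all had 0 input reads. The first, on chromosome 3 at 108295001 to 108296000, held 28 ChIP reads, with an exact lower bound of 6.72 and no upper bound. The others held 26 ChIP reads on chromosome 18 at 22667001, 24 on chromosome 12 at 31851001, 23 on chromosome 1 at 95228001 and 22 on chromosome 8 at 13097001. Their lower bounds were 6.21, 5.70, 5.44 and 5.19. In 9 of the 10 bins beside these 5, the input held 7 to 16 reads, and in the bin after that on chromosome 12 it held 1. Low input was limited to the chosen bin in 4 of the 5 cases. The lower bound favours bins with 0 input reads and asks nothing of the bins beside them, so this contrast comes with the choice.

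Among bins with at least 25 reads, the most concentrated lay on chromosome 12 at 111614001 to 111615000. It held 34 ChIP reads over 4 input reads, for a ratio of 8.05 (2.87 to 31.2), with 17 ChIP reads (50.0%) in its best 150 bp and 20 plus-strand against 14 minus-strand reads. A listed peak lay 6.00 kb away, and the bin before held 39 ChIP and 16 input reads. The next 3 held 12 or 13 of 25 to 27 ChIP reads in their best 150 bp (48.0 to 48.1%), on chromosome 11 at 102578001, chromosome 4 at 133955001 and chromosome 18 at 12477001. At the other end, the bin on chromosome 7 at 80316001 to 80317000 spread 25 ChIP reads so evenly that its best 150 bp held 5 (20.0%). Bins on chromosome 12 at 112593001 and on chromosome X at 146985001 held 29 ChIP reads each, with 6 (20.7%) in the best 150 bp.

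Enriched bins were mostly single. They fell into 1988 separate places when directly adjacent bins were joined, and 1926 of 1965 groups held 1 bin when gaps of up to 2 kb were bridged. Even so, bins beside an enriched bin met the rule more often than bins at large. At 1 kb, 34 of 3979 bins did (0.854%, 0.592 to 1.19%), against 0.0829% of all bins examined, falling to 0.315% (0.163 to 0.550%) at 10 kb. Each pair was counted from both of its bins (17 pairs at 1 kb), so these intervals are too narrow. No bin beside an exchanged bin was itself exchanged (0 of 925, which allows up to 0.398%). Another enriched bin lay within 10 kb of 158 bins (7.88%) and within 100 kb of 786 (39.2%), and the median gap to the next was 153 kb.

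The only group of 3 lay on chromosome 15, with bins starting at 79545001, 79548001 and 79550001. They held 21, 22 and 27 ChIP reads and 3, 4 and 5 input reads, and the first had 11 of its reads (52.4%) in 150 bp. A listed peak was 6.37 kb from the third. Adjacent bins on chromosome 15 from 88689001 to 88691000 held 44 and 42 ChIP reads and 8 and 7 input reads, 109.14 kb from a peak. On chromosome 7, from 126293001 to 126295000, adjacent bins held 32 and 46 ChIP reads and 6 and 4 input reads, and the ratio of the second was 10.9 (3.97 to 41.6). In these 2 pairs ChIP signal lay on both sides of a bin border, and its width was not measured.

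Enriched bins lay nearer to listed peaks than bins at large. The median gap was 61.4 kb, against 299.1 kb for all bins examined and 541.8 kb for exchanged bins. Within 10 kb of a peak lay 253 enriched bins (12.6%, 11.2 to 14.2%), against 3.95% of all bins examined. The share of bins that met the rule was 0.265% (0.233 to 0.300%) at 2 to 10 kb and 0.0165% (0.0139 to 0.0193%) beyond 500 kb. It did not rise towards the peak within that range, with 0.232% (0.157 to 0.331%) at 2 to 3 kb and 0.276% (0.234 to 0.322%) at 5 to 10 kb. Exchanged bins ran the other way, from 0.00628% at 2 to 10 kb to 0.0269% beyond 500 kb. The other bins with at least 20 ChIP reads had a median gap of 65.5 kb, close to that of enriched bins.

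The 3 enriched bins with the most reads under 3 kb from a peak held 38, 32 and 32 ChIP reads. The first, on chromosome 6 at 145820001 to 145821000, lay 2.26 kb from a peak and had 5 input reads and a ratio of 7.19 (2.83 to 23.4). Its best 150 bp held 10 reads (26.3%). Those on chromosome 2 at 166273001 (5 input reads) and chromosome 8 at 73708001 (6 input reads) lay 2.07 and 2.09 kb from a peak, with 13 reads (40.6%) in their best 150 bp.

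The regional ChIP to input ratio went with the frequency of enriched bins. It was taken over bins within 500 kb on each side and at least 2 kb from any peak, without the enriched bins and those beside them. Its median was 1.19 around enriched bins, 0.954 around all bins examined and 0.851 around exchanged bins. Where it was under 0.8, 12 of 393008 bins met the rule (0.00305%, 0.00158 to 0.00533%), and 140 met the exchanged rule. Where it was 1.3 or more, 529 of 107291 bins did (0.493%, 0.452 to 0.537%), and 2 met the exchanged rule. The 4.43% of bins in such regions held 26.4% of the enriched bins. Other bins with at least 20 ChIP reads had a median regional ratio of 1.14, nearer to that of enriched bins than to that of all bins.

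Nearness to a peak and the regional ratio go together, so each was read within classes of the other. Where the regional ratio was 1.2 or more, the share of bins that met the rule was 0.471% (0.402 to 0.547%) at 2 to 10 kb from a peak, 0.391% (0.360 to 0.423%) at 10 to 100 kb and 0.289% (0.251 to 0.331%) beyond. At a ratio of 1 to 1.2 the same shares were 0.178% (0.140 to 0.223%), 0.127% (0.114 to 0.140%) and 0.0895% (0.0804 to 0.0992%). Below 1 they were 0.0564% (0.0271 to 0.104%), 0.0390% (0.0297 to 0.0503%) and 0.0136% (0.0116 to 0.0158%). The share thus fell with distance in each class, though the intervals at 2 to 10 kb and 10 to 100 kb overlap in all 3, by little at 1 to 1.2. Over all bins it fell from 0.265% at 2 to 10 kb to 0.0423% beyond 100 kb, a wider range than in any class. Divided by its own regional ratio, the scaled ratio was at least 5 in 1247 bins (62.2%), and the lower bound was above 2 in 613 (30.6%). These values use the same reads that the rule chose on, so they describe the bins and test nothing.

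**Figure D5:**
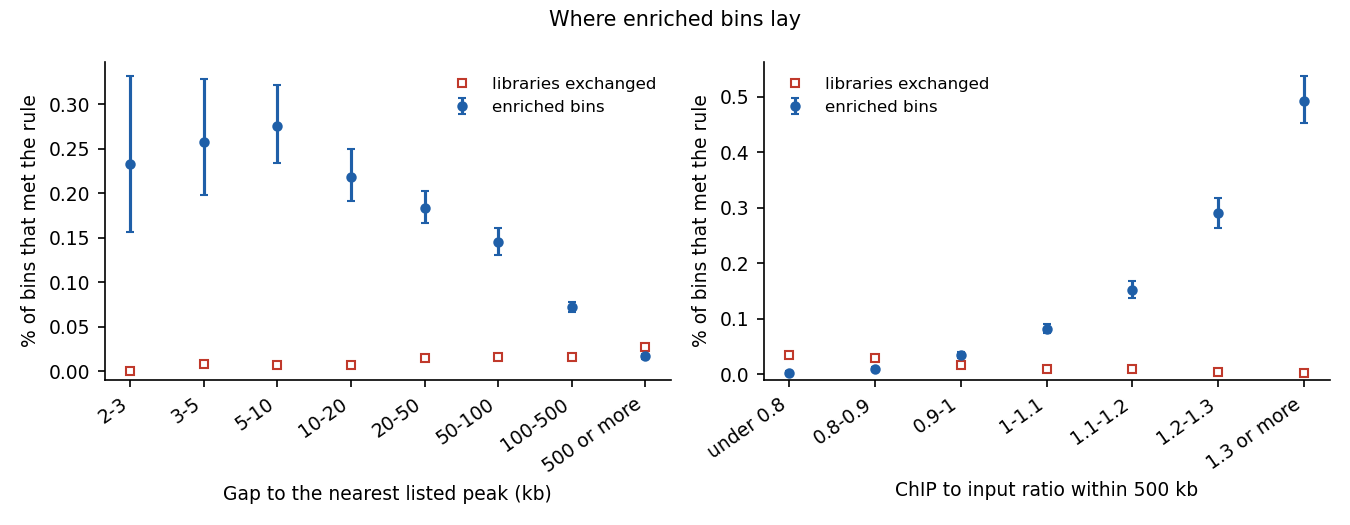
Percentage of bins that met the rule (y axis) by gap to the nearest listed peak (left, kb) and by the ChIP to input ratio within 500 kb on each side (right). Blue points are enriched bins with exact 95% intervals and red squares the same rule with the libraries exchanged; enriched bins run from 0.00305% to 0.493% along the regional ratio, and the exchanged bins run the opposite way.

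Chromosomes differed in their density of enriched bins. Chromosome 11 held 159, or 1.41 per covered Mb (1.20 to 1.64), followed by chromosomes 17 and 5 at 1.28 each and chromosome 7 at 1.28 (1.09 to 1.49). These 4 have overlapping intervals. Chromosome 3 had the lowest autosomal density, 0.375 (0.284 to 0.487), from 56 bins. Chromosome X held 40 bins, 0.281 per Mb against 0.870 on the autosomes, a ratio of 0.323 (0.230 to 0.442). The exchanged density on X was 1.06 of the autosomal value (0.699 to 1.54). In no class of regional ratio below 1.1 did the density on X lie below that on the autosomes, with 5, 13, 10 and 5 bins on X from the lowest class up, and higher classes were not compared. X had 0.395 bins per Mb against 0.35 where that ratio was 0.9 to 1, a ratio of 1.13 (0.530 to 2.12), and 0.272 against 0.0888 where it was 0.8 to 0.9, a ratio of 3.06 (1.51 to 5.79).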

How the data were processed

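The authors deposited 1 line per aligned read with position and strand, no measured value, and a peak list whose score per peak is the authors' own and has an undefined scale. Per the submitters' processing notes, the build is mm8 and HOMER was among the tools. Aligner, read filter and peak-calling control: not given in the sources used here. No read position was repeated on a strand within a library. Scores served only to split listed peaks into quartiles, with ties kept together.

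Each 5′ end was moved 100 bp towards 3′ and counted in 1 kb bins. Counting used Python 3.11.15 with pandas 2.3.3 and numpy 2.4.6, intervals scipy 1.17.1 and figures matplotlib 3.10.9, and the functions were tested on simulated data. Named bins are the 10 with most ChIP reads, the 5 with the highest lower bound, the 5 most and 3 least concentrated with at least 25 ChIP reads, the top 3 under 3 kb from a peak, the 3 longest runs and the bins at each limit. Members and measures were chosen with earlier results of these data known. Reads were amplified by PCR and carry no molecular identifier, so they are not independent molecules. No mm8 genome or annotation was at hand, so genes and sequences are not analysed here.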

Additional observations from a re-analysis of the deposited data

Results flagged for a closer look

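Unplaced contigs were outside the rule. By the same limits 1 of their 1632 bins with a read was enriched, with 22 ChIP and 3 input reads, a scaled ratio of 6.94 (2.09 to 36.2), and 0 were exchanged. A single bin carries no more than its own count. Chromosome Y, with 81 ChIP reads in all, and the mitochondrial genome held 0 enriched bins.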

How the results depend on the processing

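A count was called moved when it changed by over 1.5 times, the strand distance when it changed at all, and any other value when it left its 95% interval. Over the settings tried, 43 values stayed within these limits and 26 moved. The number of enriched bins was 183 at a ratio of at least 10, 307 with at least 30 ChIP reads, 376 with at least 5 input reads, 737 in 500 bp bins and 10 with the mean input of the surroundings where higher. The matching exchanged counts were 48, 6, 44, 72 and 15. With the input of the surroundings, the reads needed exceed those of most bins of either kind. The 10 enriched and 15 exchanged bins left are therefore not read as a deficit. A steady count hid a change of bins: with reads moved by 50 bp 1973 bins met the rule and 1375 of them were among the 2005, and with reads not moved 1066 of 1945 were. Narrow bins made up 2.84% with reads moved by 50 bp, 3.19% of the same bins with positions moved by 50 bp (chosen after the data had been seen), 1.09% at a ratio of 10, 0.326% with 30 ChIP reads, 0% with 5 input reads, 0.0499% for a best window of 100 bp and 9.38% for one of 200 bp. The strand distance was 85 bp with reads moved by 50 bp and 95 bp under the other 7 settings. The share near a peak was 8.32% when bins had to lie at least 5 kb away, which removes near bins by construction, 4.69% within 5 kb and 44.8% within 50 kb. The ratio in adjacent bins was 1.53 at a ratio of 10, 1.54 with 30 ChIP reads, where bins with fewer reads are no longer left out of the neighbours, 1.55 with 5 input reads and 1.29 in bins 2 to 5 kb away. The median regional ratio was 1.17 with 30 ChIP reads, 1.21 scaled by reads outside the peaks and 1.24 within 100 kb. The minus-strand ratio was 1.48 with that scaling. The density on X relative to autosomes was 0.0872 at a ratio of 10 and 0.210 with 30 ChIP reads. The cause of the other shifts was not tested. At a median of 9 input reads per bin, depth limits every single ratio. No paired analysis was possible because there was only 1 library of either kind.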

Other observations

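The choice on plus-strand reads was repeated with higher limits, set after the data had been seen. With at least 15 plus-strand ChIP reads, 2006 bins were chosen and their minus-strand ratio was 1.82 (1.78 to 1.86), against 1.10 (1.05 to 1.16) for 538 bins with the libraries exchanged. With at least 20, the ratio was 2.27 (2.14 to 2.41) in 250 bins, against 0.973 (0.760 to 1.25) in 19 exchanged bins. The reads left out of the choice thus showed a higher ChIP ratio at higher limits, while the exchanged value did not rise.

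Reads on 1 strand only were rare in enriched bins. At least 80% of the ChIP reads lay on 1 strand in 11 of 2005 enriched bins (0.549%, 0.274 to 0.980%), in 771 of 106118 other bins with at least 20 ChIP reads (0.727%) and, for input reads, in 19 of 465 exchanged bins (4.09%, 2.48 to 6.31%).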
